A study of Mus musculus with 14 samples.

Results

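Gcg, Sst, Ppy, Pyy and Ghrl encode the peptide hormones of the islet cells that are not beta cells, and they are 5 of the 18820 genes measured. They were taken by symbol from the deposited array table, where each gene has 1 probe set with a single gene symbol, so no choice between probe sets was needed. The samples were pancreatic islets of 14 mice, each profiled on 1 whole-transcript expression array. One genotype was the wild type of strain C57BL/6, called WT here. The other was a double knockout of Tlr2 and Tlr4, the genes of Toll-like receptors for microbial lipopeptides and lipopolysaccharide, on a C57BL/6 background and called DKO. All mice, WT included, received a high-fat diet (60% fat) from 6 weeks of age, for 5 weeks (4 WT and 2 DKO arrays) or for 7 months (4 WT and 4 DKO arrays), so no group shows islets without that diet. The labels name no tissue-specific driver of the knockout, so the receptors are taken to be missing from the whole mouse and not from islet cells alone. Mice were older at the later time, and age cannot be told apart from time on the diet. The title of the series asks how these receptors bear on growth of the beta cell mass in obesity, and here the question is what the hormone genes of the neighbouring islet cells did in the same RNA.

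An islet is a cluster of endocrine cells in which beta cells, which secrete insulin, are the majority in the mouse. Alpha cells make proglucagon from Gcg, whose product glucagon makes the liver release glucose. Delta cells make somatostatin from Sst, which restrains both insulin and glucagon release from close by. PP cells make pancreatic polypeptide from Ppy, and peptide YY from Pyy is made by several islet cell types and by gut endocrine cells. Epsilon cells make ghrelin from Ghrl, a hormone of appetite. They are frequent in the fetal islet and rare in the adult. Each hormone is made as a longer precursor, cut by prohormone convertases and stored in granules.

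The stretches just before the start of each gene are shown because the 5 genes moved together and because this is where transcription of each begins. They come from RefSeq (mouse build GRCm38.p6), hold the 150 bases before the start and are written 5′ to 3′ on the gene's own strand, which is the minus strand for all 5. The windows are chr2:62483654-62483803 for Gcg, chr16:23890845-23890994 for Sst, chr11:102101320-102101469 for Ppy, chr11:102107833-102107982 for Pyy and chr6:113719912-113720061 for Ghrl. Of the starts listed, 1 was given for Gcg, Sst and Ppy, 2 for Pyy and 4 for Ghrl, and the Sst start lies inside the annotated gene. Capitals mark the TATA box TATAAA, the cAMP response element TGACGTCA and the E-box CATCTG, each searched on both strands.
Gcg: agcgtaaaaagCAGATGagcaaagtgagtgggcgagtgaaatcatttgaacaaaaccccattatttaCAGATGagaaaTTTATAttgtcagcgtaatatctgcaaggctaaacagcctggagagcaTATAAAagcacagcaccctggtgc
Sst: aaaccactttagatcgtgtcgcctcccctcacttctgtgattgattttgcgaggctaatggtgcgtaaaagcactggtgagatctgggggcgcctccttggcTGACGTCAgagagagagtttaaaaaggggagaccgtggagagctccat
Ppy: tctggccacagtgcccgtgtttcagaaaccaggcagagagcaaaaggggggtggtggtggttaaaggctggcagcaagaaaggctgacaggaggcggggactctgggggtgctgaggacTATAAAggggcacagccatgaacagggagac
Pyy: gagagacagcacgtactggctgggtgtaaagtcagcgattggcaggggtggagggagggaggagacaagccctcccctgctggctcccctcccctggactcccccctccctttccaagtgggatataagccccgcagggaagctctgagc
Ghrl: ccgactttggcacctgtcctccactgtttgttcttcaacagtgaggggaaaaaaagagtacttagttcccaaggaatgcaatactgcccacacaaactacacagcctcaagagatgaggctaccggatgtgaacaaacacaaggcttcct
The TATA box stands at position -24 in Gcg and at position -31 in Ppy, counted back from the start, and Gcg holds its reverse complement TTTATA at -72 as well. Gcg also holds the E-box as CAGATG at -139 and at -83. Sst holds the cAMP response element at -48, the element through which its transcription is known to answer to cAMP. None of these spellings is in the Pyy or the Ghrl window, and other spellings of these motifs were not searched. Of 32851 mouse promoters of the same length, 7.57% hold the spelling TATAAA, 1.36% TGACGTCA and 8.81% CATCTG, on either strand. Also searched were the homeodomain core TAAT, which 37.8% of promoters hold and which is in the Gcg window at -91 and -57 and in the Sst window at -95, and the forkhead core TGTTTAC, which 1.8% hold and none of the 5 does. No searched motif is in all 5 windows. Ppy and Pyy are neighbours with no annotated gene between them, and belong with Npy to the neuropeptide Y family.

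The signals are log2 values made by RMA, and a difference of 1 on that scale is a factor of 2. The targeted gene Tlr2 was between 6.22 and 6.62 on the 8 WT arrays and between 4.77 and 5.41 on the 6 DKO arrays, with no overlap. Tlr4 was between 2.70 and 3.60 and below the median of its array on all 14 arrays, so it checks no label. Nnt, a gene that C57BL/6J mice are known to lack in part, was 1.61 ± 0.09 (SE) higher in DKO at 7 months (limma adjusted p = 1.96e-07), and a difference of substrain cannot be told apart from the knockout. The median of an array was 3.89 to 3.98, and the correlation of 2 arrays across genes was 0.980 to 0.989 inside a group and 0.965 to 0.985 across groups. The number of arrays limits the precision, and p-values measure the spread between these samples.

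After 7 months on the diet all 5 hormone genes fell in DKO islets against WT islets. Pyy and Ghrl fell 2.63-fold, Sst 1.84-fold, Ppy 1.76-fold and Gcg 1.61-fold, while Ins2, the insulin gene measured here, differed by 0.02 ± 0.07 on the log2 scale. Ins2 hardly varied at all, with the same 11.91 on all 4 DKO arrays at 7 months and an SD of 0.05 over all 14 arrays. Whether its probe set still responds to changes in insulin mRNA at this signal was not tested, so a level Ins2 signal does not show a level insulin mRNA. At 5 weeks no member passed the test. Of all genes 4.71% passed in this comparison at 7 months, 2.27% lower and 2.44% higher. The median difference was -0.88 over the 5 members and 0.014 over all genes. The 5 genes were chosen with earlier results of these data known. The calls of Ppy and Ghrl were the weakest. In both the genotypes overlapped at 7 months (exact permutation p = 0.0571), and Ghrl passed in only 2 of the 8 fits that left out 1 array. On the same arrays 10 of 18 stellate cell and fibroblast markers were higher in DKO than in WT. With the mean of the 18 per array as a covariate, Pyy alone of the 5 hormone genes still passed (limma adjusted p = 0.0355, against 0.309 for Gcg, 0.0639 for Sst, 0.607 for Ppy and 0.666 for Ghrl). That mean did not overlap between the genotypes at 7 months, so covariate and genotype cannot be told apart there. In bulk islets, fewer cells of a type and less RNA per cell cannot be told apart.

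**Figure D1:**
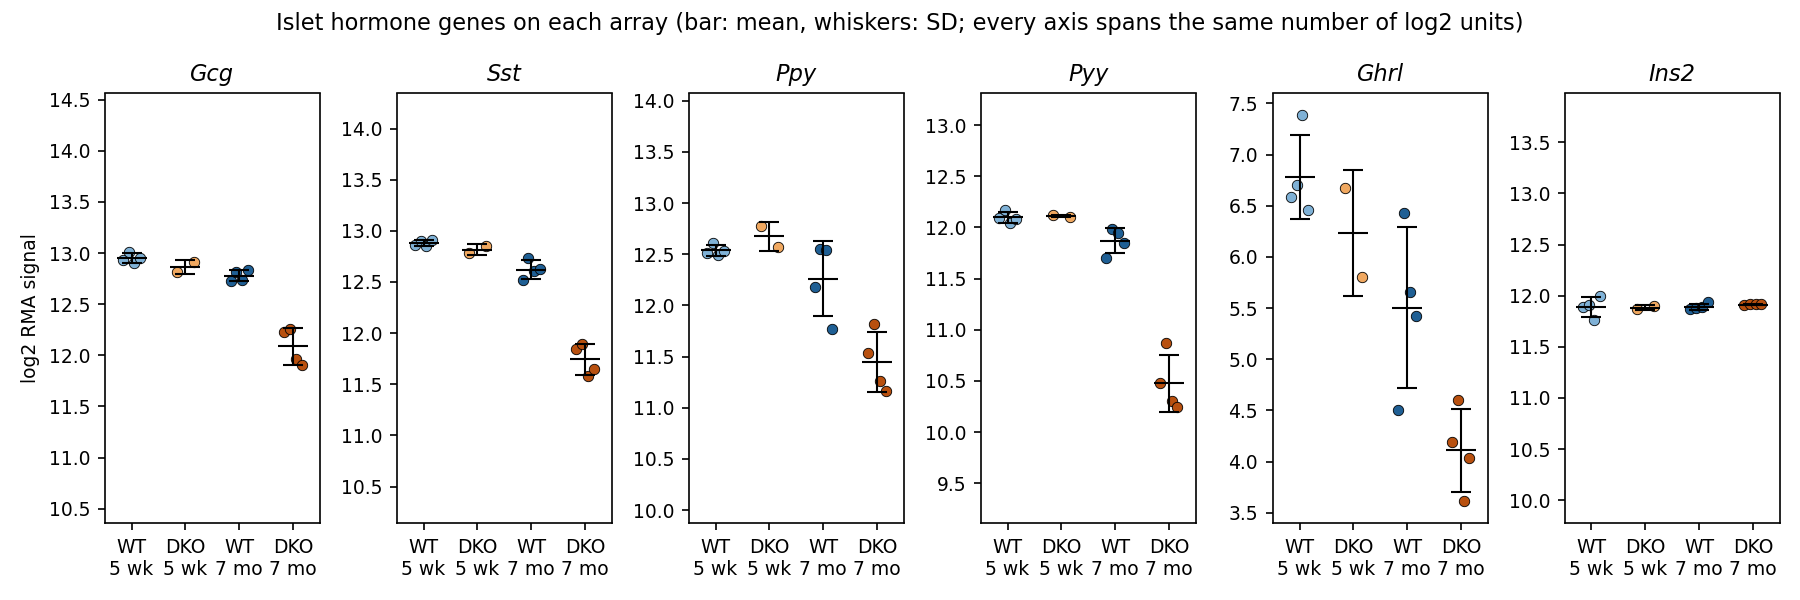
Signal of each hormone gene and of Ins2 on each array (log2 RMA signal, each point 1 array, bar the group mean, whiskers the SD). In Gcg, Sst and Pyy the 4 DKO arrays at 7 months lie below all other arrays, in Ppy and Ghrl they overlap with 1 WT array, and Ins2 stays between 11.76 and 11.99 on all 14. Such separation was not counted over all genes.

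Gcg (probe set 10483074) was among the brightest features of every array, at percentile 99.8 or above, and brightness on an array also depends on the probes. Its log2 signal was 12.93, 13.01, 12.90 and 12.95 in WT and 12.81 and 12.91 in DKO at 5 weeks. At 7 months it was 12.73, 12.81, 12.74 and 12.84 in WT and 12.23, 12.26, 11.96 and 11.91 in DKO. The 4 DKO arrays at 7 months were thus the lowest of the 14, with a gap of 0.46 to the lowest WT array of the same age. Gcg fell by 0.69 ± 0.09 (SE; 95% interval -0.88 to -0.50; limma adjusted p = 0.000374). The two-sided exact permutation test over these 8 arrays gave 0.0286, the smallest p that 4 against 4 arrays allow.

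Sst (probe set 10438730), the delta cell hormone, followed the same order of groups. Its log2 signal was 12.86, 12.90, 12.85 and 12.91 in WT and 12.78 and 12.85 in DKO at 5 weeks. At 7 months it was 12.52, 12.74, 12.60 and 12.63 in WT and 11.85, 11.89, 11.58 and 11.65 in DKO. The groups at 7 months stood 0.63 apart at their nearest arrays. Sst fell by 0.88 ± 0.08 (SE; 95% interval -1.06 to -0.70; limma adjusted p = 2.35e-05), and the exact permutation p was 0.0286.

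Ppy (probe set 10391555), the PP cell hormone, had an SD of 0.37 between WT mice at 7 months, against 0.06 in Gcg and 0.09 in Sst. Its log2 signal was 12.51, 12.61, 12.50 and 12.53 in WT and 12.78 and 12.58 in DKO at 5 weeks. At 7 months it was 12.18, 12.55, 12.54 and 11.77 in WT and 11.53, 11.82, 11.27 and 11.17 in DKO. WT replicate 4 and DKO replicate 2 overlapped, and the other 3 DKO arrays were below all WT arrays. Ppy fell by 0.82 ± 0.17 (SE; 95% interval -1.17 to -0.46; limma adjusted p = 0.0109), and the exact permutation p was 0.0571. Fitted on the 8 arrays at 7 months alone, its adjusted p was 0.0603.

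Pyy (probe set 10391561) showed the widest gap of the 5 genes between the genotypes at 7 months, 0.83 between the nearest arrays. Its log2 signal was 12.09, 12.17, 12.04 and 12.09 in WT and 12.12 and 12.10 in DKO at 5 weeks. At 7 months it was 11.71, 11.99, 11.95 and 11.85 in WT and 10.48, 10.87, 10.31 and 10.25 in DKO. The 4 DKO arrays at 7 months were the lowest of the 14. Pyy fell by 1.40 ± 0.12 (SE; 95% interval -1.65 to -1.15; limma adjusted p = 6.27e-06), and the exact permutation p was 0.0286. Counted from the lowest difference, Pyy ranked 32 and Ghrl 33 of 18820 genes, ahead of Sst at 98, Ppy at 124 and Gcg at 203.

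Ghrl (probe set 10546962), the epsilon cell hormone, had a far lower signal, at percentile 46.3 to 85.4 of its arrays, and group SDs of 0.41 to 0.79. Its log2 signal was 6.58, 6.71, 7.38 and 6.46 in WT and 6.67 and 5.80 in DKO at 5 weeks. At 7 months it was 4.51, 6.42, 5.66 and 5.43 in WT and 4.20, 4.60, 3.61 and 4.03 in DKO. WT replicate 1 at 7 months overlapped with DKO replicate 2. Ghrl fell by 1.40 ± 0.34 (SE; 95% interval -2.12 to -0.67; limma adjusted p = 0.0302), and the exact permutation p was 0.0571. The call was not stable. It passed in 2 of the 8 fits that left out 1 array at 7 months, with adjusted p from 0.00659 without WT replicate 1 to 0.0983.

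The 4 members other than Ghrl were near the top of the range of the arrays, whose brightest values lay between 13.27 and 13.46. Whether the probe sets of these 4 respond in full at such a signal was not tested. The order of their folds need not be the order of their falls in mRNA. For comparison, 28 other genes were at least as bright on average as Pyy, Ins2 among them. At 7 months none of these 28 passed limma's test between the genotypes, 1 was under 0.05 without adjustment, and their log2 differences ran from -0.64 for Slc2a2, the glucose transporter of beta cells (adjusted p = 0.0568), to 0.27. Slc2a2 was singled out after its value was seen. Of all 18820 genes 3456 were under 0.05 without adjustment in this comparison.

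At 5 weeks the genotypes overlapped in all 5 genes, and how many of all genes overlapped was not counted. None of the 5 passed limma's test, which 0.994% of all genes passed. Without adjustment none of the 5 was under 0.05, against 2282 of all 18820 genes. The differences were -0.09 ± 0.11 (SE; 95% interval -0.32 to 0.14; limma adjusted p = 0.824) for Gcg and -0.06 ± 0.10 (-0.28 to 0.16; 0.887) for Sst. Those of Ppy and Pyy were 0.14 ± 0.20 (-0.30 to 0.57; 0.865) and 0.01 ± 0.14 (-0.30 to 0.32; 0.988). For Ghrl the difference was -0.55 ± 0.42 (-1.44 to 0.34; 0.678). The intervals of Gcg, Sst, Ppy and Pyy thus exclude a fall at 5 weeks of the size seen in the same gene at 7 months, and that of Ghrl does not. With 2 DKO arrays the exact permutation test cannot go below 0.0667, and it gave 0.133 to 0.733.

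**Figure D2:**
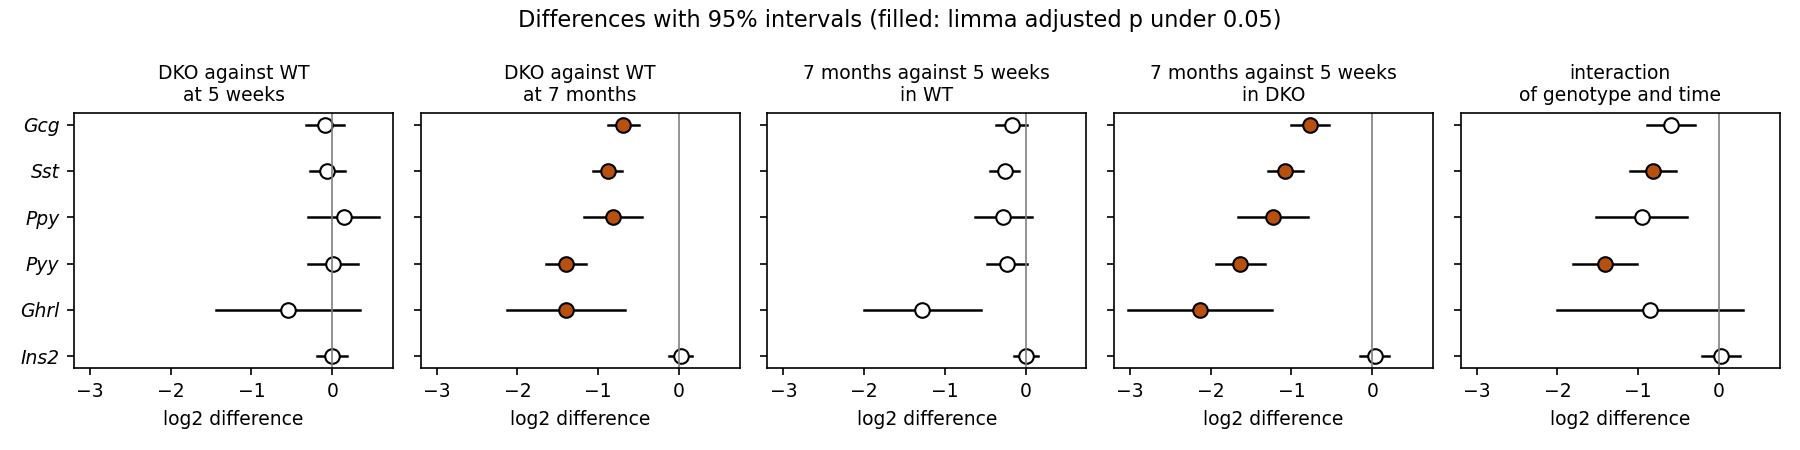
Log2 difference of each hormone gene and of Ins2 in the 5 comparisons, with 95% intervals (filled points have a limma adjusted p under 0.05). All 5 hormone genes are filled between genotypes at 7 months and over time in DKO, none at 5 weeks or over time in WT, and Sst and Pyy in the interaction.

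Whether the genotype difference itself changed between 5 weeks and 7 months was tested as an interaction. Sst and Pyy passed, by -0.82 ± 0.13 (SE; limma adjusted p = 0.0260) and by -1.41 ± 0.19 (0.0172), while Gcg (-0.60 ± 0.14, 0.145), Ppy (-0.96 ± 0.26, 0.197) and Ghrl (-0.85 ± 0.54, 0.647) did not. Of all genes 0.0903% passed in either direction, and 0.0638% downwards. The Sst call was fragile. It passed in 12 of 26 alternatives, and in 5 of the 14 fits that left out 1 array (adjusted p from 0.00900 to 0.114). The Pyy call passed in 23 of 26, and in 13 of those 14. No member passed without DKO replicate 1 at 5 weeks, and Gcg passed without DKO replicate 2 at 7 months (adjusted p = 0.0367).

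Over time, all 5 hormone genes fell in DKO islets between 5 weeks and 7 months of the diet. Ghrl fell 4.37-fold, Pyy 3.10-fold, Ppy 2.35-fold, Sst 2.11-fold and Gcg 1.71-fold, and 2.7% of all genes fell while 4.86% rose. On the log2 scale the differences were -0.77 ± 0.11 (SE; limma adjusted p = 0.000664) for Gcg, -1.07 ± 0.10 (3.5e-05) for Sst, -1.23 ± 0.20 (0.00207) for Ppy, -1.63 ± 0.14 (1.64e-05) for Pyy and -2.13 ± 0.42 (0.00632) for Ghrl. In each gene the 4 arrays at 7 months lay below both arrays at 5 weeks, which gives an exact permutation p of 0.0667, the smallest possible here. How many of all genes did so was not counted. Ghrl did not pass without DKO replicate 1 at 5 weeks (-1.69, adjusted p = 0.134). This comparison uses the same DKO arrays at 7 months as the genotype comparison, so the counts are not separate evidence.

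In WT islets the same span of time moved no hormone gene past limma's threshold, which 2.37% of all genes passed. Still, all 4 WT arrays at 7 months lay below all 4 at 5 weeks in Gcg, Sst, Pyy and Ghrl, each with an exact permutation p of 0.0286, the smallest possible, while Ppy overlapped (exact p = 0.286). The share of all genes whose arrays stood apart in this way was not counted. The gaps between the nearest arrays were small, 0.07 in Gcg, 0.11 in Sst, 0.06 in Pyy and 0.03 in Ghrl. The differences were -0.17 ± 0.09 (SE; limma adjusted p = 0.391) in Gcg, -0.26 ± 0.08 (0.151) in Sst, -0.27 ± 0.17 (0.491) in Ppy and -0.23 ± 0.12 (0.404) in Pyy. Ghrl had the largest, -1.28 ± 0.34 (0.0695), and it passed without WT replicate 2 at 7 months (-1.59, adjusted p = 0.0173). Sst and Ghrl were under 0.05 without adjustment, as were 2753 of all 18820 genes.

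The order of the mice within a group was partly shared between the 5 genes. Among the DKO arrays at 7 months replicate 2 was the highest in all 5 genes, and the lowest was replicate 4 in Gcg, Ppy and Pyy and replicate 3 in Sst and Ghrl. Among the WT arrays at 7 months replicate 1 was the lowest in Gcg, Sst, Pyy and Ghrl, and replicate 4 in Ppy, although replicate 4 was the highest in Gcg. At 5 weeks the order was less shared. WT replicate 3 was the lowest in Gcg, Sst, Ppy and Pyy but the highest in Ghrl, and DKO replicate 1 was the lower of its pair in Gcg and Sst and the higher in Ppy, Pyy and Ghrl. The description labels carry a number 5 or 7 whose meaning is not given, with 2 arrays of each number in each group at 7 months. Within number 5 and within number 7 the difference at 7 months was -0.63 and -0.74 for Gcg, -0.85 and -0.91 for Sst, -0.96 and -0.67 for Ppy, -1.43 and -1.36 for Pyy and -1.18 and -1.61 for Ghrl. Each gene was thus lower in DKO within both numbers. The labels also carry a letter whose meaning is not given. No letter is shared between groups, so it cannot be told apart from genotype and time.

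**Figure D3:**
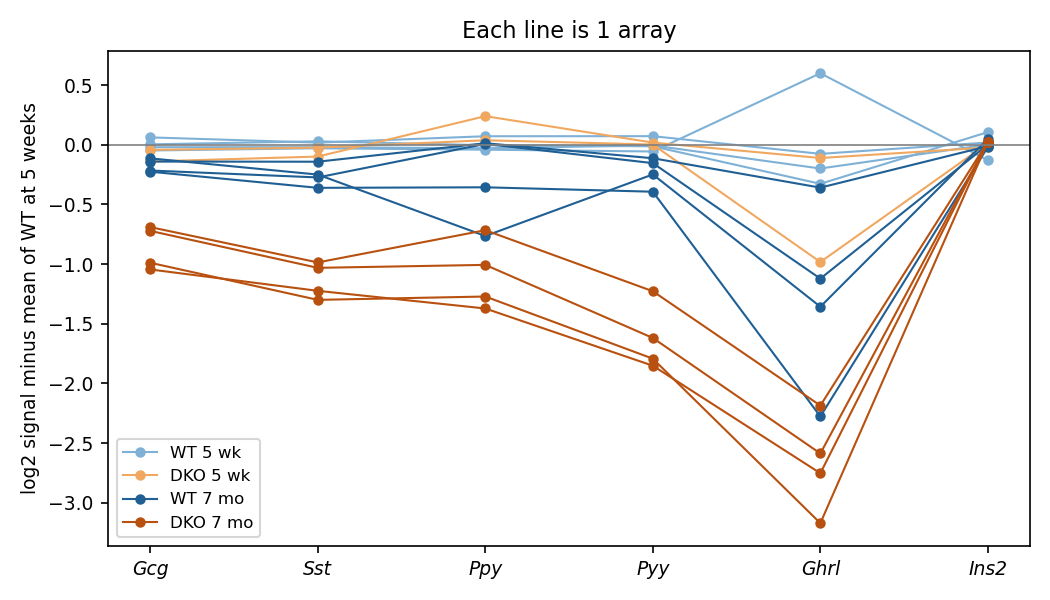
Each line is 1 array, drawn through the 5 hormone genes and Ins2 as the log2 signal minus the mean of WT at 5 weeks. The 4 DKO arrays at 7 months run below the others from Gcg to Pyy, apart from the WT array at 7 months that reaches them in Ppy, and at Ins2, whose probe set was not tested for its response at this signal, all 14 lines come together.

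Whether the hormone genes fell by unequal amounts was tested with the difference of 2 genes within each array, over all 10 pairs. At 7 months the arrays of the genotypes stood apart in 4 pairs. Pyy fell more than Gcg by 0.708 ± 0.0966 (SE), more than Sst by 0.517 ± 0.0927 and more than Ppy by 0.579 ± 0.161, and Sst more than Gcg by 0.191 ± 0.0456. Each had an exact permutation p of 0.0286, the smallest possible, and 0.0714 after Benjamini-Hochberg adjustment over the 10 pairs, so none passed. With so few arrays a pair can pass only if more of the 10 pairs also reach the smallest p. The miss therefore does not show that the genes fell equally. The other 6 pairs, among them all 4 with Ghrl, overlapped, with exact p from 0.143 to 1. Over time in WT the arrays stood apart in 1 of the 10 pairs, Ppy and Ghrl (1.00 ± 0.407, exact p = 0.0286, adjusted 0.114). Gcg, Sst, Ppy and Pyy lie near the top of the arrays' range, where the response of their probe sets was not tested. Unequal falls of their signals thus need not be unequal falls in mRNA.

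Other genes known from the same cell types were counted list by list. Of 12 other alpha cell genes measured, among them Ttr, Gc and Dpp4, none passed limma's test at 7 months. Without adjustment 5 were under 0.05 (2 higher and 3 lower), against 3456 of all 18820 genes. The median difference of the 12 was -0.02. The 4 of smallest p were Prrg2 (0.33 ± 0.10 SE, limma adjusted p = 0.0636), Peg3 (-0.36 ± 0.11, 0.0655), Sstr2 (-0.56 ± 0.19, 0.127) and Smarca1 (-0.36 ± 0.14, 0.185). Of 11 other delta cell genes 3 fell, 8 did not pass and the median was -0.29. They were Rbp4, a carrier of retinol (-1.91 ± 0.14, 2.53e-06), Ffar4, a receptor for long-chain fatty acids (-1.17 ± 0.13, 0.000107), and Pcp4l1 (-0.83 ± 0.21, 0.0370). Rbp4 and Ffar4 passed the interaction too, by -1.73 ± 0.23 (0.0172) and -1.32 ± 0.21 (0.0197). Pcp4l1 was already lower in DKO at 5 weeks, by 1.51 ± 0.26 on the log2 scale (0.0125).

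Of 9 other genes of PP and epsilon cells, 2 fell and 1 rose at 7 months, with a median of -0.07. Tspan8, a tetraspanin of the cell surface, fell by 1.05 ± 0.21 (SE; limma adjusted p = 0.0110), Anpep, an aminopeptidase, fell by 0.59 ± 0.10 (0.00261), and Gcnt1, a glycosyltransferase, rose by 0.34 ± 0.09 (0.0360). Anpep was lower in DKO at 5 weeks as well, by -0.96 ± 0.12 (0.000781). Called genes thus stood on both sides in this list.

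Transcription factors of the non-beta cells, 19 in all, had 2 that fell at 7 months and a median of -0.13. Both are Iroquois factors known from alpha cells, Irx2 (-1.22 ± 0.13 SE, limma adjusted p = 7.46e-05) and Irx1 (-0.71 ± 0.15, 0.0134). Both were also lower at 7 months than at 5 weeks in WT, Irx1 by -1.22 ± 0.15 (0.000471) and Irx2 by -0.88 ± 0.13 (0.00242). Isl1, a factor of all endocrine cells, was -0.45 ± 0.13 (0.0719) and Foxa2 -0.29 ± 0.10 (0.117).

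Of 23 other peptide and hormone genes of islets, 3 rose and 2 fell at 7 months, with a median of 0.02. Cck, which encodes cholecystokinin, rose by 2.63 ± 0.54 (SE; limma adjusted p = 0.0119), Vgf, a granule peptide precursor, by 1.42 ± 0.19 (0.000623) and Cartpt, the precursor of the CART peptide, by 1.17 ± 0.22 (0.00699). Vip, a neuropeptide of islet nerves, fell by 0.96 ± 0.18 (0.00593). Npy, of the same family as Ppy and Pyy and named here after its value was seen, fell by 0.96 ± 0.20 (0.0122). At 5 weeks none of the 23 passed and 4 were under 0.05 without adjustment, against 2282 of all 18820 genes.

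Of 16 genes for prohormone processing and granule proteins, 4 were under 0.05 without adjustment at 7 months, against 3456 of all 18820 genes. None of the 16 passed limma's test, and their median was -0.04. Those of smallest p were Chgb, a granin (0.40 ± 0.11 SE, limma adjusted p = 0.0531), Ctsl, a cathepsin (0.24 ± 0.08, 0.0888), Scgn, a calcium-binding protein (-0.40 ± 0.14, 0.118), and Pam, which amidates peptides (0.31 ± 0.13, 0.212). Over time in DKO, 4 of the 16 rose, Pam by 0.65 ± 0.16 (0.0224), Chgb by 0.52 ± 0.14 (0.0315), Ctsl by 0.39 ± 0.09 (0.0203) and Ece1, singled out after its value was seen. The convertase gene Pcsk2 was not analysed here.

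Of 15 receptors of these hormones and of the incretins, 4 were under 0.05 without adjustment between the genotypes at 7 months, against 3456 of all 18820 genes. None of the 15 passed limma's test, and their median was 0.01. Gcgr, the glucagon receptor, was 0.45 ± 0.13 (SE; limma adjusted p = 0.0682), Sstr2, a somatostatin receptor of alpha cells, -0.56 ± 0.19 (0.127), Ghsr, the ghrelin receptor, which mouse delta cells carry, -0.43 ± 0.15 (0.123) and Gipr, an incretin receptor, -0.42 ± 0.15 (0.127). Over time in DKO, Gcgr rose by 0.83 ± 0.16 (0.00594), and Sstr2 and Ghsr fell by 1.39 ± 0.24 (0.00268) and 0.90 ± 0.18 (0.00782). Sstr2 fell over time in WT as well, by 1.40 ± 0.19 (0.00129).

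**Figure D4:**
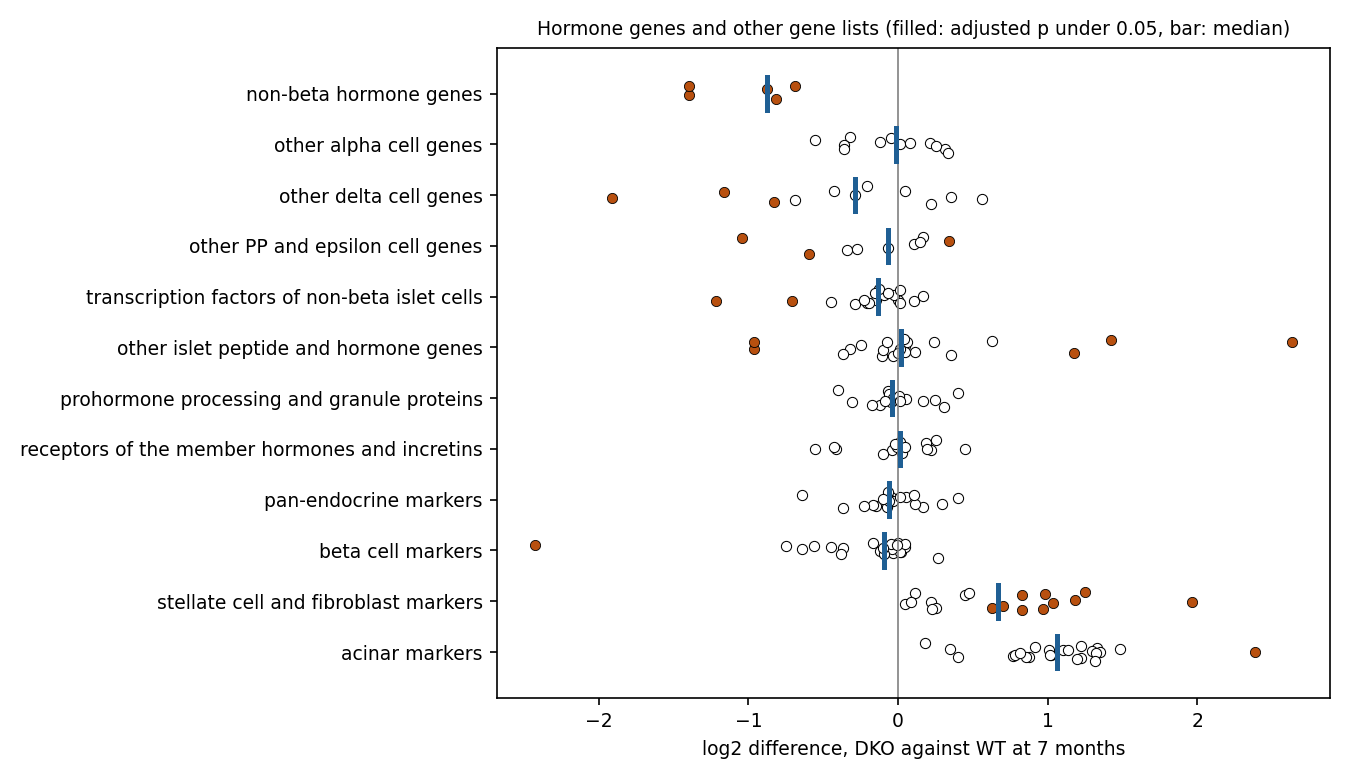
Log2 difference between DKO and WT at 7 months for each gene of the named lists (each point 1 gene, filled where the limma adjusted p is under 0.05, bar the median of the list). The 5 hormone genes lie between -1.40 and -0.69, while the medians of the other endocrine lists lie between -0.29 and 0.02 and those of the stellate and acinar lists at 0.67 and 1.06.

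Of 19 markers shared by all endocrine cells, 6 were under 0.05 without adjustment at 7 months, against 3456 of all 18820 genes. None of the 19 passed limma's test, and their median was -0.06. Their summed linear signal was 31862 to 33729 in WT and 31474 to 34251 in DKO. Chga, Scg3, Cpe and Scg2 of this list were brighter on average than Pyy, and the response of their probe sets was not tested. A level sum thus does not show a level amount of endocrine RNA. Of 21 beta cell markers 1 fell, Npas4, an activity-dependent transcription factor (-2.42 ± 0.28 SE, limma adjusted p = 0.000142), and the median was -0.10. With the mean of the shared endocrine markers per array as a covariate, Gcg, Sst, Ppy and Pyy still passed at 7 months, and Ghrl did not (-1.37, adjusted p = 0.0528). That mean, centred over the arrays, was -0.05 to 0.05 in WT and -0.1 to 0 in DKO at 7 months. As a covariate it could thus change the genotype differences little. The share of each cell type among the endocrine cells was not tested.

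Markers of some cells that are not endocrine also differed between the genotypes at 7 months. Stellate cells and fibroblasts make the matrix of the pancreas. Of 18 of their markers, 10 were higher in DKO than in WT at 7 months and none was lower, with a median of 0.67. Dcn, which encodes decorin, was higher by 1.96 ± 0.30 (SE; limma adjusted p = 0.00162), Col3a1, a collagen chain, by 1.18 ± 0.18 (0.00149), Pdgfra, a growth factor receptor, by 0.83 ± 0.13 (0.00203) and Vim, vimentin, by 0.83 ± 0.15 (0.00642). Over time in DKO none of these 4 passed (0.528, 0.353, 0.268 and 0.571), while in WT Dcn fell by 1.38 ± 0.30 (0.0253) and Pdgfra by 0.53 ± 0.13 (0.0490). Of the 18, 4 rose over time in DKO (median 0.44), and in WT 1 rose and 2 fell (median -0.32). The summed linear signal of the 18 was 1353 to 1514 in WT and 1844 to 2817 in DKO at 7 months, against 1213 to 1813 over both genotypes at 5 weeks. The mean of the list per array, centred over the 14 arrays, was -0.35, -0.27, -0.16 and -0.35 in WT and 0.18, 0.22, 0.40 and 0.79 in DKO at 7 months, so the genotypes did not overlap there.

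**Figure D5:**
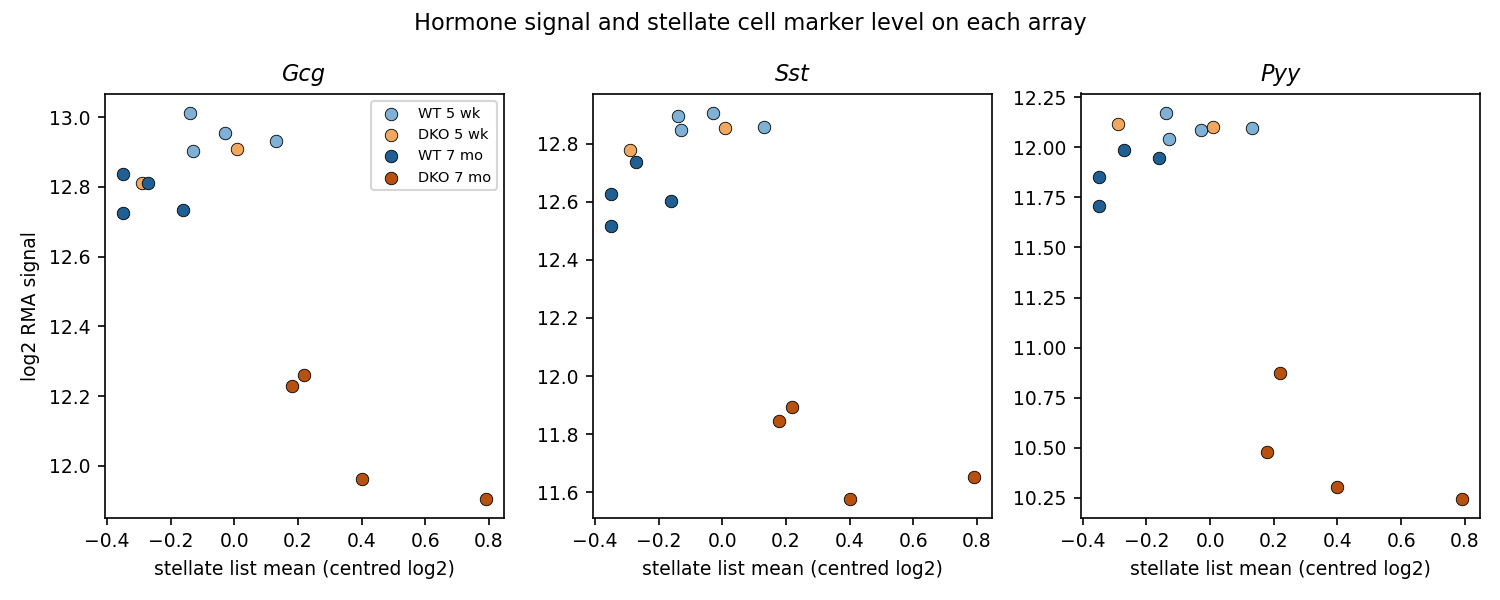
Log2 signal of Gcg, Sst and Pyy against the mean of the stellate cell and fibroblast markers on each array (centred log2 scale, each point 1 array). The 4 DKO arrays at 7 months lie at 0.18 to 0.79 with the lowest hormone signals, and the other 10 arrays lie between -0.35 and 0.13.

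With that mean as a covariate, Pyy alone of the 5 hormone genes passed between the genotypes at 7 months (-1.12, limma adjusted p = 0.0355). The values of the others were -0.44 for Gcg (0.309), -0.75 for Sst (0.0639), -0.51 for Ppy (0.607) and -0.91 for Ghrl (0.666). The covariate separates the genotypes at 7 months, so the 2 cannot be told apart there. Acinar markers, 24 measured, had a median of 1.06 at 7 months with 1 that rose, Prss3 (2.38 ± 0.58 SE, 0.0302). Their summed linear signal ran from 1244 to 16644 in WT and from 7536 to 11956 in DKO, and was 16002 to 20675 in DKO at 5 weeks. With the acinar mean as a covariate all 5 hormone genes still passed at 7 months. Whether acinar cells had a part in the hormone differences was not tested.

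Of the other cell types the islets could hold, 4 of 20 macrophage markers rose in DKO at 7 months, Lyz2, a lysozyme, by 0.96 ± 0.21 (SE; limma adjusted p = 0.0161) among them, and their summed signal was 1163 to 1304 in WT and 1127 to 1854 in DKO. Of 16 endothelial markers 2 rose, Tek (0.57 ± 0.09, 0.00260) and Vwf (0.81 ± 0.14, 0.00345), and 1 fell, Emcn (-0.36 ± 0.09, 0.0424), with a summed signal of 3082 to 3505 in WT and 3156 to 3760 in DKO. Of 10 duct markers 1 rose, Krt18 (0.46 ± 0.08, 0.00306), with 1384 to 1504 and 1530 to 1638. None of 12 T and B cell markers passed, and 1 was under 0.05 without adjustment, against 3456 of all 18820 genes. The sum of the 12 was 105 to 120 in WT and 113 to 352 in DKO. None of 6 Schwann cell markers passed or was under 0.05 without adjustment, at 50 to 57 and 48 to 56. The part of these cells in the hormone differences was not tested.

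The genes whose signal ran most like each hormone over the 14 arrays were sought among the 9405 genes above the median level, with Pearson's r as the measure. The arrays fall into groups that differ, so r is a description of these arrays. Rbp4, of the delta cell list, came first for Gcg (r = 0.970), Sst (0.987) and Pyy (0.970). Its group means were 9.38 in WT and 9.20 in DKO at 5 weeks, and 8.37 in WT and 6.46 in DKO at 7 months. Next for Gcg came Sim1 (0.964), a transcription factor, and Syt1 (0.960), a synaptotagmin. Next for Sst came Syt1 (0.977) and Ifih1 (0.972), a sensor of double-stranded RNA, and for Pyy Arhgap35 (0.965) and Rere (0.963). For Ppy they were Tspan8 (0.974), Ifih1 (0.959) and Phf2 (0.950), and for Ghrl Cotl1 (0.953), Lpl (0.946), a lipoprotein lipase, and Ppp1r37 (0.938). Among the hormone genes themselves r ran from 0.869, between Gcg and Ghrl, to 0.990, between Gcg and Sst and between Sst and Pyy.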

How the data were processed

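Per the labels' protocols, frozen islets gave 100 ng of total RNA a sample for biotin labelling and an expression array that covers whole transcripts. The authors deposited log2 values, computed with RMA per the submitters' processing notes (version not given in the sources used here). They were used without further normalization. Of 35556 probe sets, 21218 carry 1 gene symbol, 1881 several and 12457 none, and the last 2 kinds were left out. Symbols were updated by Entrez identifier for 18790 genes and kept for 30, and of 1386 genes with several probe sets the brightest was used, which gave 18820 genes. Groups follow genotype and time in the labels, replicates are the labels' replicate numbers, and no array pair held identical values.

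The 14 arrays entered a single limma fit (version 3.58.1, lmFit and eBayes, R 4.3.3) that gives each group its own mean, for the 5 comparisons, with Benjamini-Hochberg adjustment over all genes and a threshold of 0.05. A two-sided exact permutation test of the arrays was added for each member (Python 3.11.15, scipy 1.17.1, figures with matplotlib 3.10.9). The method was tested on simulated data. The alternatives were a filter on dim genes, all probe sets, the mean of a gene's probe sets, only the arrays compared, a trended robust prior, centring on array medians, repeated quantile normalization, array weights, the replicate number, the label number or an acinar, stellate or pan-endocrine mean as a term, and each array left out in turn.

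The members and the 16 gene lists (251 genes, 227 measured) were chosen with earlier results of these data known. By rule the text names the members, Ins2, Tlr2, Tlr4, Nnt, up to 4 genes of each list with the smallest p between genotypes at 7 months, processing and receptor genes that pass between genotypes, and the 3 genes most like each member. Motifs were searched in RefSeq promoters (GRCm38.p6). The array table names no build, so no gene coordinates are given. Ins1 and Pcsk2 were not analysed here.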

Additional observations from a re-analysis of the deposited data

Results flagged for a closer look

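For 2 hormone genes the genotype difference at 7 months differed from that at 5 weeks by the test of the interaction itself. For Sst the difference of differences was -0.818 on the log2 scale (limma adjusted p = 0.0260), and for Pyy it was -1.41 (adjusted p = 0.0172). The 2 calls were not equally stable. Sst passed in 12 of 26 alternatives, and in 5 of the 14 that left out 1 array, while Pyy passed in 23 of 26 and in 13 of those 14. In both genes the DKO and WT arrays overlapped at 5 weeks and stood apart at 7 months, which was not counted over all genes. In 15 groups of 4 arrays, over the 5 genes, no array passed Dixon's criterion for an outlier at the 95% level, a bar that only a very distant array of 4 can reach. A call can be unstable without such an outlier. Between genotypes at 7 months Ghrl passed in 2 of the 8 fits that left out 1 array, and missed without WT replicate 2 (limma adjusted p = 0.0853) among others.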

How the results depend on the processing

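Between genotypes at 7 months Pyy passed in all 21 alternatives (-1.53 to -1.12), Gcg and Sst in 20, Ppy in 19 and Ghrl in 10, and no member changed sign. With the stellate mean as a covariate, Gcg (-0.44, adjusted p = 0.309), Sst (-0.75, 0.0639), Ppy (-0.51, 0.607) and Ghrl (-0.91, 0.666) did not pass there, which left 1 member and 86 genes; the mean separates the genotypes. Fitting only the arrays compared left 3 members and 488 genes, with Ppy at -0.82 (0.0603) and Ghrl at -1.40 (0.0714). Ghrl also missed with all probe sets (-1.40, 0.0777), with the replicate block (-1.40, 0.0517) and with the pan-endocrine mean (-1.37, 0.0528). Leaving out 1 array gave -1.73 (without WT replicate 1) to -1.09 (without WT replicate 2) for Ghrl, and 528 genes (without WT replicate 1) to 1681 (without DKO replicate 2).

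At 5 weeks no member passed in any of the 19 alternatives. The values near 0 changed sign. Ppy was -0.020 with the acinar mean. Pyy was -0.00095 with arrays centred on their medians, -0.058 with the replicate block, -0.0088 with the acinar, -0.029 with the stellate and -0.10 with the pan-endocrine mean, and -0.0077 to 0.035 with 1 array left out. The genes past the threshold numbered 120 with only the arrays compared, 282 with the trended robust prior, 121 with the replicate block, 98 with the acinar mean, 57 with the pan-endocrine mean, and 44 to 171 with 1 array left out, the fewest without DKO replicate 1.

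Over time in WT, 1 member passed in each of 3 settings: Sst with the trended robust prior (-0.26, 0.0442), and Ghrl with only genes above the median level (-1.28, 0.0463) or array weights (-1.20, 0.0449). Ghrl was -1.90 within label number 5 and -0.66 within 7. With 1 array left out 0 to 1 members passed, Ghrl ran from -1.59 to -0.95, and the genes numbered 221 (without WT replicate 1 at 7 months) to 389. They were 282 with the acinar mean and 786 with array weights. In DKO, the stellate mean left 2 members and 312 genes, with Gcg at -0.57 (0.0644), Ppy at -0.99 (0.114) and Ghrl at -1.74 (0.185). Ghrl was -2.77 within label number 5 and -1.49 within 7, and -2.56 to -1.69 with 1 array left out. The genes were 347 with only the arrays compared, 864 with the replicate block, 908 with the acinar mean, and 378 (without DKO replicate 1 at 5 weeks) to 2051 with 1 array left out.

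In the interaction, no member and 0 genes passed with all probe sets, where Sst was -0.82 (0.0766) and Pyy -1.41 (0.0766); without adjustment 1909 of 18820 genes were under 0.05 in limma's fit of 1 probe set per gene. With the stellate mean 0 members and 1 gene passed (Sst -0.67, 0.457; Pyy -1.09, 0.353). 1 member passed with arrays centred on their medians (Sst -0.76, 0.0511), the replicate block (Sst -0.77, 0.0834) or the pan-endocrine mean (Sst -0.81, 0.0670). Gcg passed with the trended robust prior (-0.60, 0.0309). Ppy was -1.24 within label number 5 and -0.67 within 7. The genes were 35 with only genes above the median level, 46 with the trended robust prior, 10 with the replicate block and 28 with array weights. With 1 array left out, 0 (without DKO replicate 1 at 5 weeks) to 3 members and 2 to 185 genes passed, the most without DKO replicate 2 at 7 months. Gcg ran from -0.65 to -0.54, Sst from -0.87 to -0.76 and Pyy from -1.54 to -1.33. The Sst interaction passed in 5 of these 14 fits, namely without DKO replicate 1, 2 or 4 or WT replicate 1 or 3 at 7 months, and missed in the others, with adjusted p up to 0.114. Pyy missed without DKO replicate 1 at 5 weeks alone (0.0677). Over all alternatives Sst passed in 12 of 26 and Pyy in 23.

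Same-numbered arrays did not deviate together (18 pairs, r from -0.163 to 0.158, 1 over 0.1; 5 of 14 arrays best correlated with their own number), so the numbers are not taken to pair the samples, and the replicate block changed no other member's call. The causes of the changes between settings were not tested. With 2 DKO arrays at 5 weeks, that time sets the limit. Leaving 1 out assumes that the lone array varies like the other groups. Ghrl, at a low signal and with wide group SDs, is the least certain of the 5, and the 4 bright genes lie near the top of the arrays' range.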
